A study of Mus musculus with 12 samples.

Results

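The genes described here are 9 receptor and marker genes of the stem cell zones of mouse epidermis: the R-spondin receptors Lgr4, Lgr5 and Lgr6, the Wnt receptor ubiquitin ligases Znrf3 and Rnf43, the leucine-rich repeat proteins Lrig1, Lrig2 and Lrig3, and the surface protein Plet1. They were chosen by name, as genes known to mark or act in these zones, with earlier results of these data known. Counts of these genes set beside shares of all genes are therefore descriptive and not an independent test. All 9 were found among the 17853 genes measured, with 194 of the 221205 exon probe sets that carry a single gene symbol. Plet1 stood in the probe annotation under its older clone name, 1600029D21Rik, and was matched through it.

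The cells came from back-skin epidermis of female Gata6-mTomato reporter mice on a C57BL6/CBA background, sorted in telogen, when hair follicles rest. The 4 populations share reporter, strain background, sex, tissue and hair cycle stage, and differ in the gates of the sort. Gata6+Itga6- cells had the tomato reporter and lacked surface integrin alpha 6. Gata6+Itga6+ cells had both. CD34+ cells had integrin alpha 6 and CD34, the sort marker of the hair follicle bulge, and no reporter. Remaining basal cells had integrin alpha 6 and neither CD34 nor the reporter. Each population was measured on 3 arrays described as biological replicates. The labels do not tie a replicate number to a mouse, so p-values measure the spread between these arrays. A population is a gate and can hold several kinds of cell: in such bulk samples, fewer cells of a type and less RNA per cell cannot be told apart.

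R-spondins are secreted proteins that bind Lgr4, Lgr5 and Lgr6 at the cell surface, and the bound complex draws off the ligases Znrf3 and Rnf43, which otherwise remove Frizzled receptors from the membrane; the cell then answers more strongly to Wnt. In mouse skin Lgr5 is known as a marker of cells of the lower bulge and hair germ, Lgr6 as a marker of the isthmus and of parts of the interfollicular epidermis, and Lrig1 and Plet1 as markers of the junctional zone, where the follicle meets the sebaceous gland and the surface epithelium. Lrig1 restrains ErbB receptors, which bind epidermal growth factor and its relatives.

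Levels are given as log2 of the deposited intensity plus 1, and a gene's level is the median of its probe sets. The deposited files do not state the scale of the intensities, which were read as linear from their array maxima of 2172 to 2953. A level of 2.46, under which 95% of the population means of the 1144 genes for olfactory or vomeronasal receptors lay, is used as the level of silent genes. Array intensities had medians of 3.97 to 4.57 and upper quartiles of 12.1 to 17.6. Precision is limited by the 3 arrays of each population. Over all genes, replicate arrays correlated at 0.935 to 0.957 and arrays from separate populations at 0.828 to 0.941. Among the sort genes, Gata6 averaged 5.84 in Gata6+Itga6- cells and 4.39 in Gata6+Itga6+ cells, compared with 2.84 in CD34+ cells and 2.73 in remaining basal cells. Cd34 averaged 7.95 in CD34+ cells and lay under the level of silent genes in the other populations. Itga6 averaged 6.02 in Gata6+Itga6- cells, well over the level of silent genes although the gate excluded its protein, and 6.76 to 7.67 in the other populations.

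All 6 keratinocyte markers (Krt5, Krt14, Krt15, Trp63, Krt1 and Krt10) lay over the level of silent genes in all populations. The endothelial markers (5 of 5 measured) and the Merkel cell markers (4 of 4 measured) lay under it in every population. Of 6 dermal fibroblast markers, Col1a1 and Col1a2 lay over it in CD34+ cells and none did elsewhere, and their summed log2 level was 12.0 to 12.2 in CD34+ arrays, against 10.6 to 11.0 in remaining basal arrays. Of 5 T cell markers, Cd3e and Cd3g lay over it in Gata6+Itga6- cells and Thy1 in CD34+ (mean 2.54) and remaining basal cells (mean 3.88). The summed log2 level of these 5 was 9.79 to 12.0 in Gata6+Itga6- arrays, 8.55 to 9.20 in Gata6+Itga6+ arrays and 8.49 to 10.1 in CD34+ arrays, against 9.75 to 11.9 in remaining basal arrays. H2-Aa was the 1 of 5 Langerhans cell and macrophage markers over it, in Gata6+Itga6- cells, and Mlana the 1 of 5 melanocyte markers, in Gata6+Itga6+ and CD34+ cells. Of 6 sebocyte markers, Scd1 and Fasn lay over it in all populations, and the list's summed log2 level was 12.3 to 13.4 in Gata6+Itga6- arrays, 14.5 to 14.7 in Gata6+Itga6+ arrays, 12.1 to 13.1 in CD34+ arrays and 14.3 to 16.2 in remaining basal arrays. The part of these other cells in the results below was not tested.

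The promoter letters of 3 members are shown because their levels differed most clearly across the populations among the members with a window in the RefSeq promoter table: Plet1 and Lrig1 were high in both Gata6+ populations, and Lgr4 was lowest in remaining basal cells. Each window holds the 250 bases before the annotated start, on assembly GRCm38.p6, read 5′ to 3′ on the gene's strand. Capitals mark TATAAA, the letters of a TATA box, and CCAAT or its reverse complement ATTGG, searched on both strands with no overlap between matches.
Plet1 (chr9:50494275-50494524, plus strand): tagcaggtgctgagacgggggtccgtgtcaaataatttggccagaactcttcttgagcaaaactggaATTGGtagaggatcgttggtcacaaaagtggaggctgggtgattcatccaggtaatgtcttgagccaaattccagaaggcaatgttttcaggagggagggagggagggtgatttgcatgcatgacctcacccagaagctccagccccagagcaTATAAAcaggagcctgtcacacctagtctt
Lrig1 (chr6:94700146-94700395, minus strand): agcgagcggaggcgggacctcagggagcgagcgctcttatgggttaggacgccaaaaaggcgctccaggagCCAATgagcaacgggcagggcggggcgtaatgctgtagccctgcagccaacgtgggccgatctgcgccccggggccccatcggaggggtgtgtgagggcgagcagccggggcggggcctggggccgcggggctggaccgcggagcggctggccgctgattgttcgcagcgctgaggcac
Lgr4 (chr2:109917397-109917646, plus strand): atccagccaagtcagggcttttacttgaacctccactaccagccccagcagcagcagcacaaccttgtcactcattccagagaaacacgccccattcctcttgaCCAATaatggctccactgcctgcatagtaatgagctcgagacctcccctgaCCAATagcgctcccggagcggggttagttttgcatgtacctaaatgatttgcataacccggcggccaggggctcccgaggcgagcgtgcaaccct

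The Plet1 window was the only 1 of the 8 member windows, which cover 7 of the 9 genes, with TATAAA, letters held by 12.4% of all 32817 windows. CCAAT stood in 5 of the 8 windows, those of Lgr4, Lrig1, Lrig2, Lrig3 and Plet1, and in 33.8% of all windows. The Lrig1 window was 71.6% G and C, the Lgr4 window 55.6% and the Plet1 window 50%. Neither GATAA, core letters bound by GATA factors (22.6% of all windows), nor CTTTGA, core letters bound by Tcf and Lef factors (13.8% of all windows), stood in any of the 8 windows. Lgr5 and Znrf3 had no window. The letters were not tested against the levels.

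The populations were compared in 6 pairs with limma on all 12 arrays, with Benjamini-Hochberg adjustment over all genes and a call at an adjusted p under 0.05. The comparisons share arrays and are not independent. In Gata6+Itga6+ against CD34+ cells, Lrig1 and Plet1 rose and Lgr5 fell, where 2.4% of all genes were called higher and 2.18% lower, and the median change of the 9 genes was 0.43 on the log2 scale. In Gata6+Itga6+ against remaining basal cells, Lgr4, Lrig1 and Plet1 rose, 3 of 9, where 1.07% of all genes were called higher and 0.286% lower, with a median change of 0.50. Lgr6 alone fell in Gata6+Itga6- against Gata6+Itga6+ cells, 1 of 9, where 1.17% of all genes were called higher and 2.01% lower, with a median change of -0.37. Against CD34+ cells, Gata6+Itga6- cells had a rise of Lrig1 and Plet1 and a fall of Lgr4 and Lgr5, 4 of 9, where 3.22% of all genes were called higher and 4.74% lower, with a median change of -0.50. Against remaining basal cells, Gata6+Itga6- cells had a rise of Lgr4, Lrig1 and Plet1, 3 of 9, where 2.96% of all genes were called higher and 2.15% lower, with a median change of 0.21. Lgr4, Lgr5 and Lrig3 rose in CD34+ against remaining basal cells, 3 of 9, where 3.32% of all genes were called higher and 1.67% lower, with a median change of 0.45. The median change of all genes lay between -0.03 and 0.04 in the 6 comparisons.

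The arrays of the populations compared did not overlap for 8 of the 9 genes in Gata6+Itga6+ against CD34+ cells (19.5% of all genes), 4 in Gata6+Itga6+ against remaining basal cells (15.7%) and 3 in Gata6+Itga6- against Gata6+Itga6+ cells (19.4%). They did not overlap for 7 in Gata6+Itga6- against CD34+ cells (22.7%), 5 in Gata6+Itga6- against remaining basal cells (19.8%) and 6 in CD34+ against remaining basal cells (18.8%). All 9 genes reached the level of silent genes in some population, whereas 8745 of the 17853 genes lay under it in every population. The shares given for all genes, here and for the calls, include those silent genes. Shares over expressed genes alone were not taken.

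**Figure D1:**
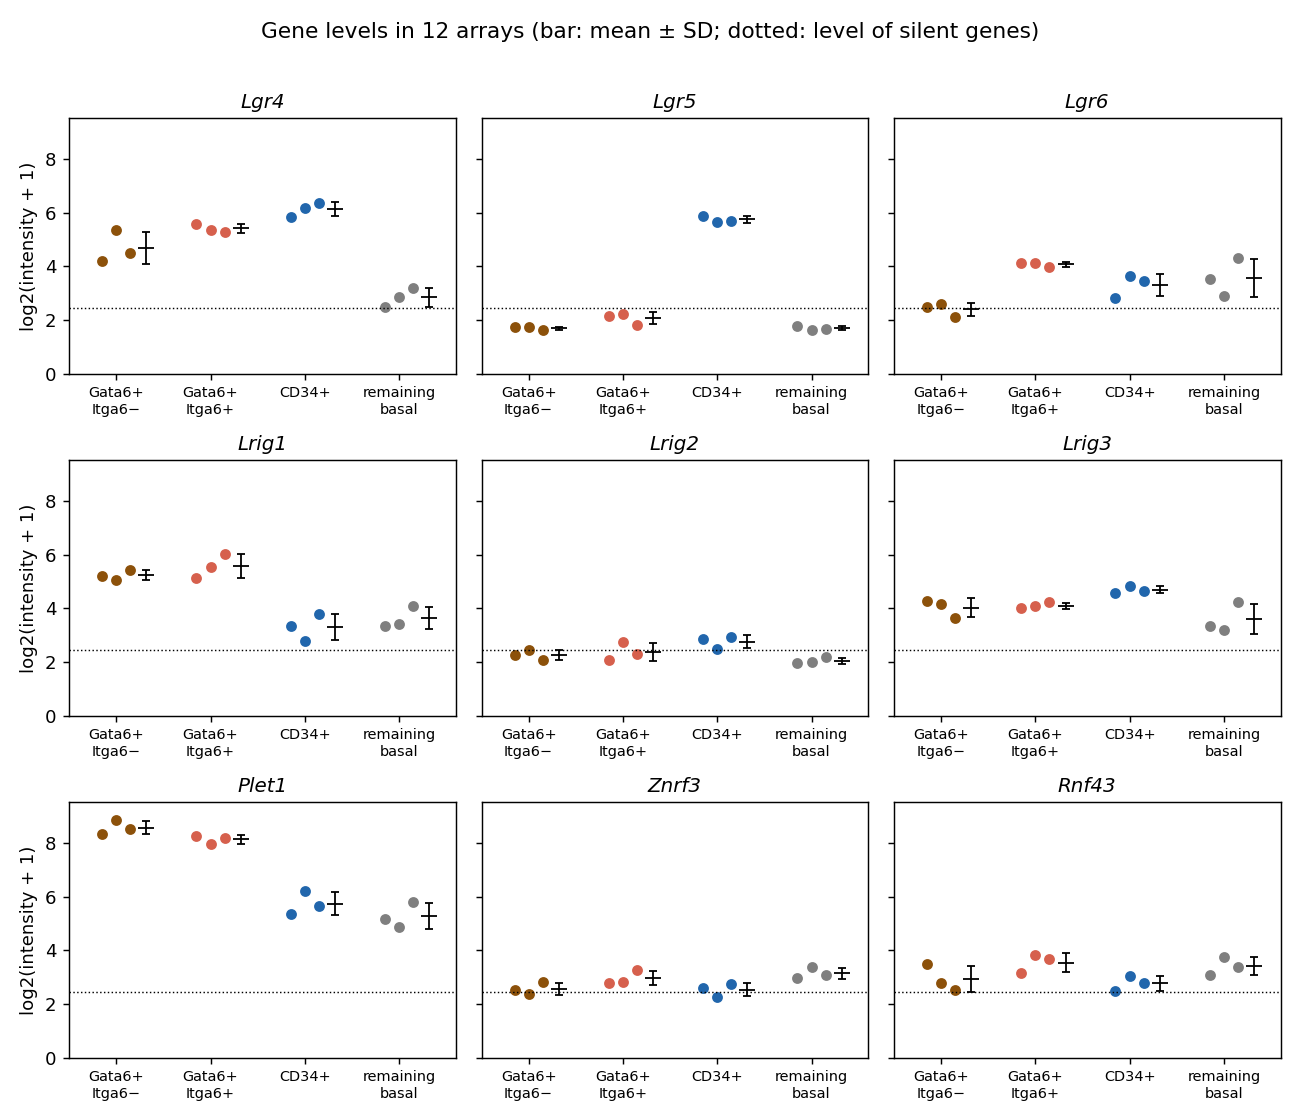
Level of each of the 9 genes in the 12 arrays, as log2 of the intensity plus 1; each point is an array, bars show the mean and SD of 3 arrays, and the dotted line marks the level of silent genes at 2.46. Lgr5 lies over that line in CD34+ arrays and under it in the other populations, Plet1 and Lrig1 are high in both Gata6+ populations, and Lrig2 stays near the line.

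Lgr4, the most widely expressed R-spondin receptor, was high in 3 populations and low in remaining basal cells. Its levels were 4.20, 5.34 and 4.51 in Gata6+Itga6- arrays, 5.58, 5.37 and 5.28 in Gata6+Itga6+ arrays and 5.83, 6.17 and 6.37 in CD34+ arrays, against 2.50, 2.86 and 3.18 in remaining basal arrays. Every array of the other populations lay over every remaining basal array, and the remaining basal values sat just over the level of silent genes. The rise over remaining basal cells was 3.28 on the log2 scale in CD34+ cells (SE 0.28, adjusted p = 5.77e-05, 9.72-fold). It was 2.56 in Gata6+Itga6+ cells (SE 0.28, adjusted p = 0.00152, 5.91-fold) and 1.84 in Gata6+Itga6- cells (SE 0.28, adjusted p = 0.00332, 3.58-fold). Lgr4 also fell in Gata6+Itga6- against CD34+ cells, by 2.72-fold, at a log2 change of -1.44 (adjusted p = 0.00971). The order of the means was CD34+, Gata6+Itga6+, Gata6+Itga6- and remaining basal cells, and the neighbours among the upper 3 were not told apart. Gata6+Itga6+ minus CD34+ was -0.72 (95% interval -1.34 to -0.09, adjusted p = 0.251), with no overlap of the arrays, and Gata6+Itga6- minus Gata6+Itga6+ was -0.72 (95% interval -1.35 to -0.10, adjusted p = 0.272), with overlap. The first of these passed the threshold when probe sets were averaged (-1.15, adjusted p = 0.00536) or array brightness was a covariate (-0.84, adjusted p = 0.0394). The second passed it without Gata6+Itga6- replicate 2, the highest array of that population (-1.05, adjusted p = 0.0479).

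The 19 Lgr4 probe sets mostly moved with the gene. In CD34+ against remaining basal cells 18 of them rose, where 1.77% of all probe sets were called higher, with changes from -0.08 to 4.29 and a median of 3.15. The exception was probe set 5463396, which averaged 1.60 in Gata6+Itga6- cells, 1.38 in Gata6+Itga6+ cells and 1.55 in CD34+ cells, against 1.64 in remaining basal cells, all under the level of silent genes. In Gata6+Itga6+ against CD34+ cells 18 of the 19 probe sets were lower in value and 6 fell, where 0.988% of all probe sets were called lower, with a median of -1.23. Over remaining basal cells, 8 probe sets rose in Gata6+Itga6+ cells, where 0.44% of all probe sets did, and 11 rose in Gata6+Itga6- cells, where 1.37% did. With the brightest probe set, 4377960, standing for the gene, the rise in CD34+ cells was kept, while the rises in Gata6+Itga6+ cells (1.65, adjusted p = 0.232) and in Gata6+Itga6- cells (1.67, adjusted p = 0.101) were not, nor was the fall in Gata6+Itga6- against CD34+ cells (-1.53, adjusted p = 0.116). That fall also missed the threshold in a fit of those populations alone (adjusted p = 0.0566).

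Lgr5, the R-spondin receptor used as a marker of cycling stem cells in several epithelia, was over the level of silent genes in CD34+ arrays and under it in all 9 others. Its levels were 1.72, 1.74 and 1.63 in Gata6+Itga6- arrays, 2.16, 2.22 and 1.82 in Gata6+Itga6+ arrays and 5.88, 5.65 and 5.70 in CD34+ arrays, against 1.78, 1.64 and 1.68 in remaining basal arrays. No CD34+ array came near an array of another population. CD34+ minus remaining basal was 4.04 (SE 0.12, adjusted p = 5.43e-08), Gata6+Itga6+ minus CD34+ was -3.68 (SE 0.12, adjusted p = 1.06e-07) and Gata6+Itga6- minus CD34+ was -4.04 (SE 0.12, adjusted p = 4.05e-08). Taken against the level of silent genes, CD34+ cells were at least 9.72-fold higher than each of the others. In the remaining comparisons both means lay under that level, so no fold is given. Gata6+Itga6+ cells were the highest of the low populations, with each array over each remaining basal array: the difference was 0.37 (95% interval 0.10 to 0.63, adjusted p = 0.239), and 0.43 when probe sets were averaged (adjusted p = 0.0395). The dermal fibroblast markers Col1a1 and Col1a2 were also highest in CD34+ cells, while Col3a1, Dcn, Lum and Pdgfra lay under the level of silent genes there.

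The 29 Lgr5 probe sets differed among themselves. In 19 of them the mean lay over the level of silent genes in CD34+ cells alone, in 4 it lay over it in CD34+ cells and in 1 or 2 other populations, and in 6 it lay over it in all populations. CD34+ minus remaining basal ran from -0.20 for probe set 5123512 to 6.98 for probe set 5371922, with a median of 3.73. In that comparison 25 of the 29 rose and none fell, where 1.77% of all probe sets were called higher. In Gata6+Itga6+ against CD34+ cells 21 of 29 fell, where 0.988% of all probe sets were called lower, and in Gata6+Itga6- against CD34+ cells 23 of 29 fell, where 2.43% were. With limma, 0 of 29 passed in Gata6+Itga6+ against remaining basal cells (0.528% of all probe sets), in Gata6+Itga6- against Gata6+Itga6+ cells (0.933%) and in Gata6+Itga6- against remaining basal cells (2.38%), where 4, 3 and 0 had an unadjusted p under 0.05. The number of probe sets over the level of silent genes was 5, 9 and 6 in Gata6+Itga6- arrays, 12, 10 and 9 in Gata6+Itga6+ arrays and 26, 28 and 29 in CD34+ arrays, against 6, 7 and 6 in remaining basal arrays.

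**Figure D2:**
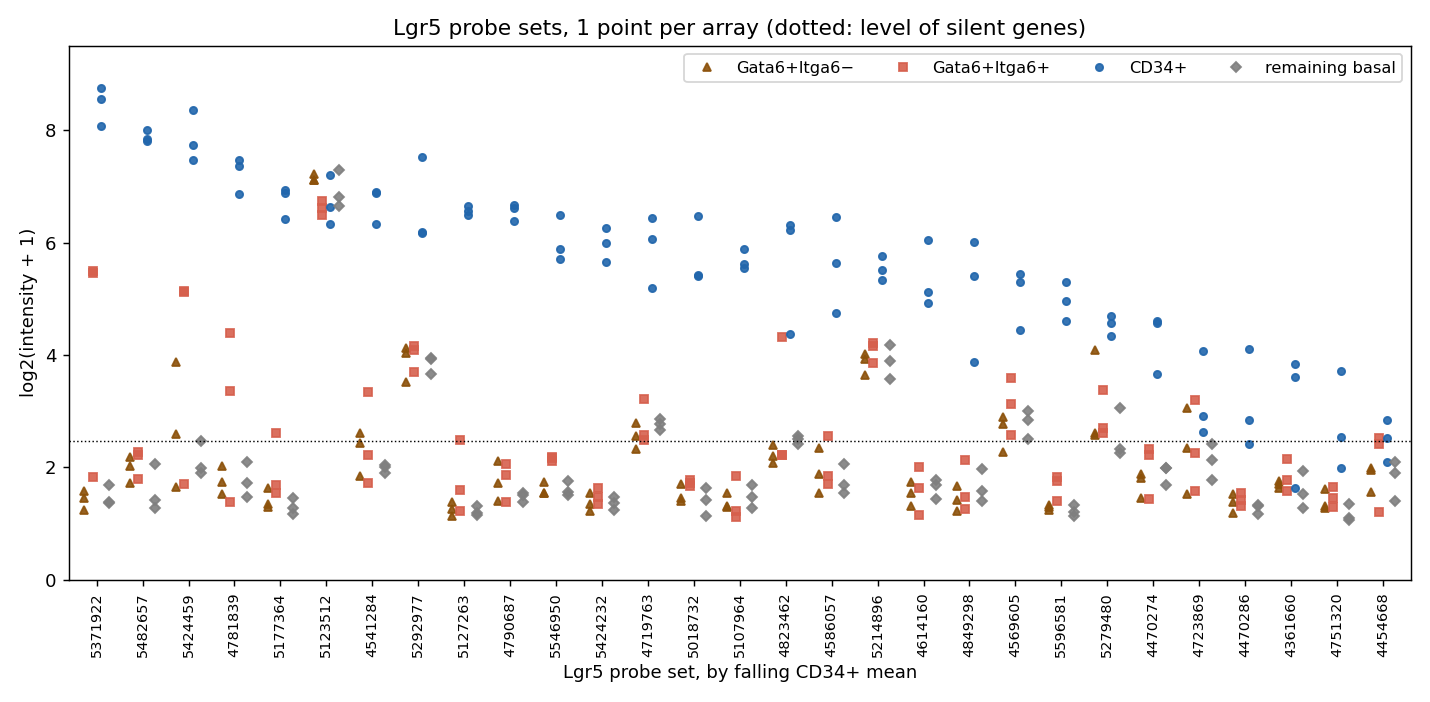
Level of the 29 Lgr5 probe sets in the 12 arrays, as log2 of the intensity plus 1, ordered along the horizontal axis by falling CD34+ mean; symbols mark the populations and the dotted line the level of silent genes at 2.46. CD34+ arrays stand clear of the rest at most probe sets. At 5123512 all populations lie between 6.33 and 7.29, and at 5371922, 5424459 and 4781839 some Gata6+Itga6+ arrays lie between the CD34+ arrays and the others. At 5424459 Gata6+Itga6- replicate 2, at 3.88, also lies over the remaining basal arrays.

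Probe set 5123512 was bright and flat. It read 7.23, 7.11 and 7.11 in Gata6+Itga6- arrays, 6.62, 6.74 and 6.48 in Gata6+Itga6+ arrays and 6.62, 7.20 and 6.33 in CD34+ arrays, against 7.29, 6.82 and 6.66 in remaining basal arrays. CD34+ arrays overlapped the remaining basal arrays and lay within the range set by the other populations at all but the lowest value. This probe set had the highest mean of the 29 over all arrays, so with the brightest probe set standing for the gene, Lgr5 was no longer called: CD34+ minus remaining basal became -0.20 (adjusted p = 0.799) and Gata6+Itga6+ minus CD34+ became -0.10 (adjusted p = 0.936). The other 5 probe sets that lay over the level of silent genes in all populations, 4569605, 4719763, 5214896, 5279480 and 5292977, still rose in CD34+ against remaining basal cells, by up to 3.13. Probe set 5214896, for example, averaged 3.86 in Gata6+Itga6- cells, 4.08 in Gata6+Itga6+ cells and 5.53 in CD34+ cells, against 3.88 in remaining basal cells.

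At the bright end of the gene, 3 of the 4 probe sets with the highest CD34+ means also carried signal in some Gata6+Itga6+ arrays. Probe set 5371922 read 5.50, 5.46 and 1.82 in Gata6+Itga6+ arrays, against 8.75, 8.07 and 8.55 in CD34+ arrays. Probe set 5424459 read 5.11, 5.14 and 1.70 in Gata6+Itga6+ arrays, against 7.74, 8.37 and 7.46 in CD34+ arrays. It also read 1.66, 3.88 and 2.59 in Gata6+Itga6- arrays, against 1.98, 2.47 and 1.90 in remaining basal arrays. Probe set 4781839 read 4.39, 3.36 and 1.39 in Gata6+Itga6+ arrays, against 7.46, 7.37 and 6.86 in CD34+ arrays. In these 3 probe sets, Gata6+Itga6+ replicates 1 and 2 were raised and replicate 3 lay under the level of silent genes. Probe set 4823462 had the opposite pattern: it read 2.22, 2.22 and 4.33 in Gata6+Itga6+ arrays, against 6.31, 4.36 and 6.22 in CD34+ arrays, so that replicate 3 alone was raised. Probe set 5482657, the second brightest in CD34+ cells, did not share this: it read 1.79, 2.22 and 2.26 in Gata6+Itga6+ arrays, against 7.84, 7.80 and 8.0 in CD34+ arrays. The brightest probe set of Cd34, 5249054, read 3.29, 3.13 and 2.40 in the same Gata6+Itga6+ arrays, against 8.78, 9.40 and 9.75 in CD34+ arrays. Its lowest value was that of replicate 3, as in 5371922, 5424459 and 4781839 and unlike 4823462. It also read 2.89, 2.66 and 2.27 in Gata6+Itga6- arrays, so its Gata6+Itga6+ values stood out little. The order of the Gata6+Itga6+ arrays varied among the Cd34 probe sets. For example, replicate 3 was also lowest in 4839169 and 5537821, but it was highest in 5003741 and 4365345, and replicate 2 was highest in 5183325. Whether CD34+ cells in the Gata6+Itga6+ gate had a part in the raised Lgr5 values was not tested.

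The difference between Lgr5 probe sets was itself tested with limma's diffSplice, which sets the change of each probe set against the mean change of the rest of the gene and pools the spread over the gene's probe sets. It called 15 of 29 in CD34+ against remaining basal cells (1.7% of all probe sets tested), 10 in Gata6+Itga6+ against CD34+ cells (1.34%) and 14 in Gata6+Itga6- against CD34+ cells (2.34%). With the spread of each probe set taken on its own, an alternative added after the data were seen, the counts were 10 (0.874%), 8 (0.563%) and 12 (1.53%), with 9, 6 and 10 called both ways. Probe set 5123512 was called both ways in all 3 comparisons: its change departed from the rest of the gene by -3.83 in CD34+ against remaining basal cells, by 3.07 in Gata6+Itga6+ against CD34+ cells and by 3.98 in Gata6+Itga6- against CD34+ cells. Probe set 5482657 departed the other way in all 3, by 2.91, -2.82 and -2.58, also both ways. Probe set 5371922 departed by 3.61 in CD34+ against remaining basal cells, which passed with the pooled spread (adjusted p = 3.78e-11) and missed the threshold with its own (adjusted p = 0.0509). In Gata6+Itga6- against CD34+ cells it departed by -3.75 and passed with the pooled spread (adjusted p = 4.63e-12) and with its own (adjusted p = 0.0312). Probe sets are given by their array numbers, since their positions within the gene were not used here. Probe set 4454668, which departed by -2.90 in CD34+ against remaining basal cells, was dim, with a mean of 2.49 in CD34+ cells, just over the level of silent genes. In that comparison and with the pooled spread, the probe sets ranked 25 to 29 by falling CD34+ mean, at 3.21 to 2.49, all departed downward. Those ranked 1 to 5, at 8.46 to 6.75, all departed upward. Of the other departures, 5127263 and 4790687 went upward and 5123512, 5214896 and 5279480 downward. Whether exons were used differently was not tested.

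Lgr6, the R-spondin receptor of the isthmus, was highest in Gata6+Itga6+ cells and lowest in Gata6+Itga6- cells. Its levels were 2.47, 2.58 and 2.13 in Gata6+Itga6- arrays, 4.14, 4.13 and 3.98 in Gata6+Itga6+ arrays and 2.83, 3.63 and 3.47 in CD34+ arrays, against 3.51, 2.88 and 4.30 in remaining basal arrays. The Gata6+Itga6- arrays lay under all arrays of the other populations, near the level of silent genes, and the remaining basal arrays spread widely. Gata6+Itga6- minus Gata6+Itga6+ was -1.69 (SE 0.32, adjusted p = 0.0198), at least 3.07-fold lower when taken against the level of silent genes. No other step passed. Gata6+Itga6- minus remaining basal was -1.17 (95% interval -1.89 to -0.46, adjusted p = 0.0726) and Gata6+Itga6- minus CD34+ was -0.91 (95% interval -1.63 to -0.20, adjusted p = 0.139). Among the upper 3 populations, Gata6+Itga6+ minus CD34+ was 0.77 (95% interval 0.06 to 1.49, adjusted p = 0.291), Gata6+Itga6+ minus remaining basal was 0.51 (95% interval -0.20 to 1.23, adjusted p = 0.606) and CD34+ minus remaining basal was -0.26 (95% interval -0.97 to 0.46, adjusted p = 0.817). Of the 22 probe sets, 20 had a lower mean in Gata6+Itga6- cells and 4 fell, where 0.668% of all probe sets were called lower. Probe set 4691304, for example, averaged 2.29 in Gata6+Itga6- cells and 5.42 in Gata6+Itga6+ cells (adjusted p = 0.00988).

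The Lgr6 call was close to the threshold. Leaving out Gata6+Itga6- replicate 1 or 3, or Gata6+Itga6+ replicate 1, 2 or 3, gave adjusted p-values of 0.0605 to 0.0826 at changes of -1.55 to -1.74, and array brightness as a covariate gave -1.28 (adjusted p = 0.0532). The step to remaining basal cells in turn passed in 7 of 23 alternatives, among them without remaining basal replicate 2 (-1.51, adjusted p = 0.0181), and the step to CD34+ cells passed without remaining basal replicate 3 (-0.91, adjusted p = 0.0441).

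Znrf3 and Rnf43, the ligases that R-spondins and Lgr receptors draw off the membrane, had population means of 2.53 to 3.14 and 2.77 to 3.54, over the level of silent genes, and limma called neither in any comparison or alternative. Some values were close to that level: Znrf3 lay under it in Gata6+Itga6- replicate 2 (2.37) and CD34+ replicate 2 (2.26). The lowest Rnf43 array, CD34+ replicate 1, read 2.49. At an unadjusted p under 0.05 stood 3 of the 6 comparisons for Znrf3 and 2 for Rnf43. Znrf3 levels were 2.53, 2.37 and 2.82 in Gata6+Itga6- arrays, 2.79, 2.82 and 3.27 in Gata6+Itga6+ arrays and 2.58, 2.26 and 2.75 in CD34+ arrays, against 2.96, 3.36 and 3.09 in remaining basal arrays. Rnf43 levels were 3.49, 2.79 and 2.53 in Gata6+Itga6- arrays, 3.14, 3.81 and 3.67 in Gata6+Itga6+ arrays and 2.49, 3.04 and 2.77 in CD34+ arrays, against 3.07, 3.75 and 3.38 in remaining basal arrays. Both had their lowest mean in CD34+ cells, whose arrays lay under all remaining basal arrays. CD34+ minus remaining basal was -0.61 for Znrf3 (95% interval -1.02 to -0.19, adjusted p = 0.109). It was -0.63 for Rnf43 (95% interval -1.26 to -0.01, adjusted p = 0.311). Of the probe sets, 11 of 14 for Znrf3 and 13 of 18 for Rnf43 reached the level of silent genes in some population. Over the 6 comparisons limma called 0 of them, with up to 3 of the Znrf3 and up to 4 of the Rnf43 probe sets at an unadjusted p under 0.05 in a comparison. Of all probe sets, 0.528% were called in Gata6+Itga6+ and 2.38% in Gata6+Itga6- against remaining basal cells, and 0.933% between the Gata6+ populations. In Gata6+Itga6+ against CD34+ cells 0.871% were called higher and 0.988% lower, and in Gata6+Itga6- against CD34+ cells 1.55% and 2.43%. In CD34+ against remaining basal cells 1.77% were called higher. Counts of 0 are thus near the background.

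Lrig1, the restrainer of ErbB receptors, was high in both Gata6+ populations. Its levels were 5.19, 5.06 and 5.43 in Gata6+Itga6- arrays and 5.13, 5.54 and 6.03 in Gata6+Itga6+ arrays, against 3.34, 2.79 and 3.78 in CD34+ arrays and 3.35, 3.42 and 4.09 in remaining basal arrays. Every Gata6+ array lay over every other array. The Gata6+ populations overlapped each other, as did CD34+ and remaining basal cells. Lrig1 rose by 2.26 in Gata6+Itga6+ against CD34+ cells (SE 0.30, adjusted p = 0.0017, 4.79-fold) and by 1.94 against remaining basal cells (SE 0.30, adjusted p = 0.012, 3.84-fold). It rose by 1.92 in Gata6+Itga6- against CD34+ cells (SE 0.30, adjusted p = 0.0025, 3.79-fold) and by 1.61 against remaining basal cells (SE 0.30, adjusted p = 0.0112, 3.04-fold). Gata6+Itga6- minus Gata6+Itga6+ was -0.34 (95% interval -1.01 to 0.33, adjusted p = 0.748), and CD34+ minus remaining basal was -0.32 (95% interval -0.99 to 0.35, adjusted p = 0.733).

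Of the 25 Lrig1 probe sets, 13 rose in Gata6+Itga6+ against CD34+ cells (0.871% of all probe sets called higher) and 7 against remaining basal cells (0.44%). In Gata6+Itga6- cells 16 rose against CD34+ cells (1.55%) and 10 against remaining basal cells (1.37%). Probe set 5476314 did not follow: it averaged 4.22 in Gata6+Itga6- cells and 4.07 in Gata6+Itga6+ cells, compared with 4.29 in CD34+ cells and 3.70 in remaining basal cells. Its change departed from the rest of the gene with either spread against CD34+ cells, by -2.09 in Gata6+Itga6+ cells and by -1.98 in Gata6+Itga6- cells. Nor did the dim probe set 5357030 follow, at 2.73 in Gata6+Itga6- cells, 2.43 in Gata6+Itga6+ cells, 2.71 in CD34+ cells and 2.55 in remaining basal cells. Against CD34+ cells it departed with the pooled spread alone, by -2.14 in Gata6+Itga6+ cells and by -1.89 in Gata6+Itga6- cells. Probe sets 5121515 and 5578737 averaged 5.19 and 5.04 in Gata6+Itga6- cells, against 2.91 and 3.23 in Gata6+Itga6+ cells. In that comparison they departed upward by 2.32 and 1.83, with the pooled spread alone, and limma called neither change (adjusted p = 0.239 and 0.241). Probe set 5556162 departed upward by 1.94 in Gata6+Itga6+ against CD34+ cells, also with the pooled spread alone. The rise in Gata6+Itga6+ over remaining basal cells missed the threshold without remaining basal replicate 1 (1.81, adjusted p = 0.0541) or 2 (1.84, adjusted p = 0.0613), in a fit of those populations alone (adjusted p = 0.0692) and with array brightness as a covariate (1.57, adjusted p = 0.0849). Remaining basal replicate 3, the brightest array of its population with an upper quartile of intensity over probe sets of 1 symbol of 16.2 against 12.2 and 12.6 in replicates 1 and 2, held that population's highest Lgr4, Lgr6, Lrig1, Lrig2, Lrig3 and Plet1 values.

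Lrig2, a relative of Lrig1, lay close to the level of silent genes in all populations. Its levels were 2.25, 2.45 and 2.07 in Gata6+Itga6- arrays, 2.08, 2.75 and 2.29 in Gata6+Itga6+ arrays and 2.85, 2.48 and 2.93 in CD34+ arrays, against 1.96, 1.98 and 2.18 in remaining basal arrays. The CD34+ arrays, all just over that level, did not overlap the remaining basal arrays. CD34+ minus remaining basal was 0.71 (95% interval 0.30 to 1.13, adjusted p = 0.0579), and it passed the threshold in 5 of 23 alternatives, among them without Gata6+Itga6+ replicate 1 (adjusted p = 0.0464) or 2 (adjusted p = 0.0298) and without CD34+ replicate 2 (0.85, adjusted p = 0.0422). Of its 27 probe sets, 16 reached the level of silent genes in some population and 1 of 27 rose in CD34+ against remaining basal cells, where 1.77% of all probe sets were called higher, so that this count is near the background.

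Lrig3, the third of these relatives, was over the level of silent genes in every array and highest in CD34+ cells. Its levels were 4.28, 4.15 and 3.63 in Gata6+Itga6- arrays, 4.00, 4.07 and 4.22 in Gata6+Itga6+ arrays and 4.59, 4.84 and 4.63 in CD34+ arrays, against 3.35, 3.21 and 4.25 in remaining basal arrays. The CD34+ arrays lay over all others, and the rest overlapped. Lrig3 rose by 1.08 in CD34+ against remaining basal cells (SE 0.26, adjusted p = 0.0391, 2.12-fold), with 25 of 26 probe sets higher in value and 2 called, where 1.77% of all probe sets were called higher. Gata6+Itga6+ minus CD34+ was -0.59 (95% interval -1.16 to -0.01, adjusted p = 0.327), and Gata6+Itga6- minus CD34+ was -0.66 (95% interval -1.24 to -0.09, adjusted p = 0.189). The call was lost in 15 of 23 alternatives. Leaving out CD34+ replicate 1, 2 or 3, remaining basal replicate 1 or 2, Gata6+Itga6- replicate 2 or Gata6+Itga6+ replicate 1, 2 or 3 gave adjusted p-values of 0.0562 to 0.138 at changes of 0.88 to 1.13, and the brightest probe set gave 0.17 (adjusted p = 0.931). With array brightness as a covariate the change was 0.81 (adjusted p = 0.105), and with the replicate number as a block its adjusted p was 0.0764. Gata6+Itga6- minus CD34+ passed without remaining basal replicate 3 (adjusted p = 0.0402). When probe sets were averaged, Gata6+Itga6- minus CD34+ was -0.66 (adjusted p = 0.0304) and Gata6+Itga6+ minus CD34+ was -0.71 (adjusted p = 0.0306), both past the threshold.

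Plet1, a glycolipid-anchored surface protein of the junctional zone, was far higher in both Gata6+ populations. Its levels were 8.33, 8.84 and 8.53 in Gata6+Itga6- arrays and 8.26, 7.95 and 8.18 in Gata6+Itga6+ arrays, against 5.35, 6.19 and 5.66 in CD34+ arrays and 5.17, 4.86 and 5.81 in remaining basal arrays. All 6 Gata6+ arrays lay well over the other 6, in which Plet1 was still over the level of silent genes. It rose by 3.28 in Gata6+Itga6- against remaining basal cells (SE 0.27, adjusted p = 5.55e-05, 9.74-fold) and by 2.83 against CD34+ cells (SE 0.27, adjusted p = 7.82e-05, 7.13-fold). It rose by 2.85 in Gata6+Itga6+ against remaining basal cells (SE 0.27, adjusted p = 0.00058, 7.20-fold) and by 2.40 against CD34+ cells (SE 0.27, adjusted p = 0.000519, 5.27-fold). Each of these calls held in all 23 alternatives. The Gata6+Itga6- arrays lay just over the Gata6+Itga6+ arrays, at a difference of 0.43 (95% interval -0.16 to 1.03, adjusted p = 0.575). CD34+ minus remaining basal was 0.45 (95% interval -0.15 to 1.05, adjusted p = 0.504).

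In all 4 of these comparisons 13 of the 14 Plet1 probe sets rose, where 0.44% to 1.55% of all probe sets were called higher, and 1 was not called. That probe set, 5500709, averaged 1.28 in Gata6+Itga6- cells, 1.44 in Gata6+Itga6+ cells and 1.26 in CD34+ cells, against 1.24 in remaining basal cells, all under the level of silent genes, and its change departed from the rest of the gene with either spread in all 4. Against remaining basal cells the widest rise was that of probe set 5475314, which averaged 7.27 in Gata6+Itga6- cells and 6.78 in Gata6+Itga6+ cells, compared with 3.36 in CD34+ cells and 2.09 in remaining basal cells. Against CD34+ cells it was that of 5118383, which averaged 8.14 in Gata6+Itga6- cells and 7.58 in Gata6+Itga6+ cells, compared with 3.67 in CD34+ cells.

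**Figure D3:**
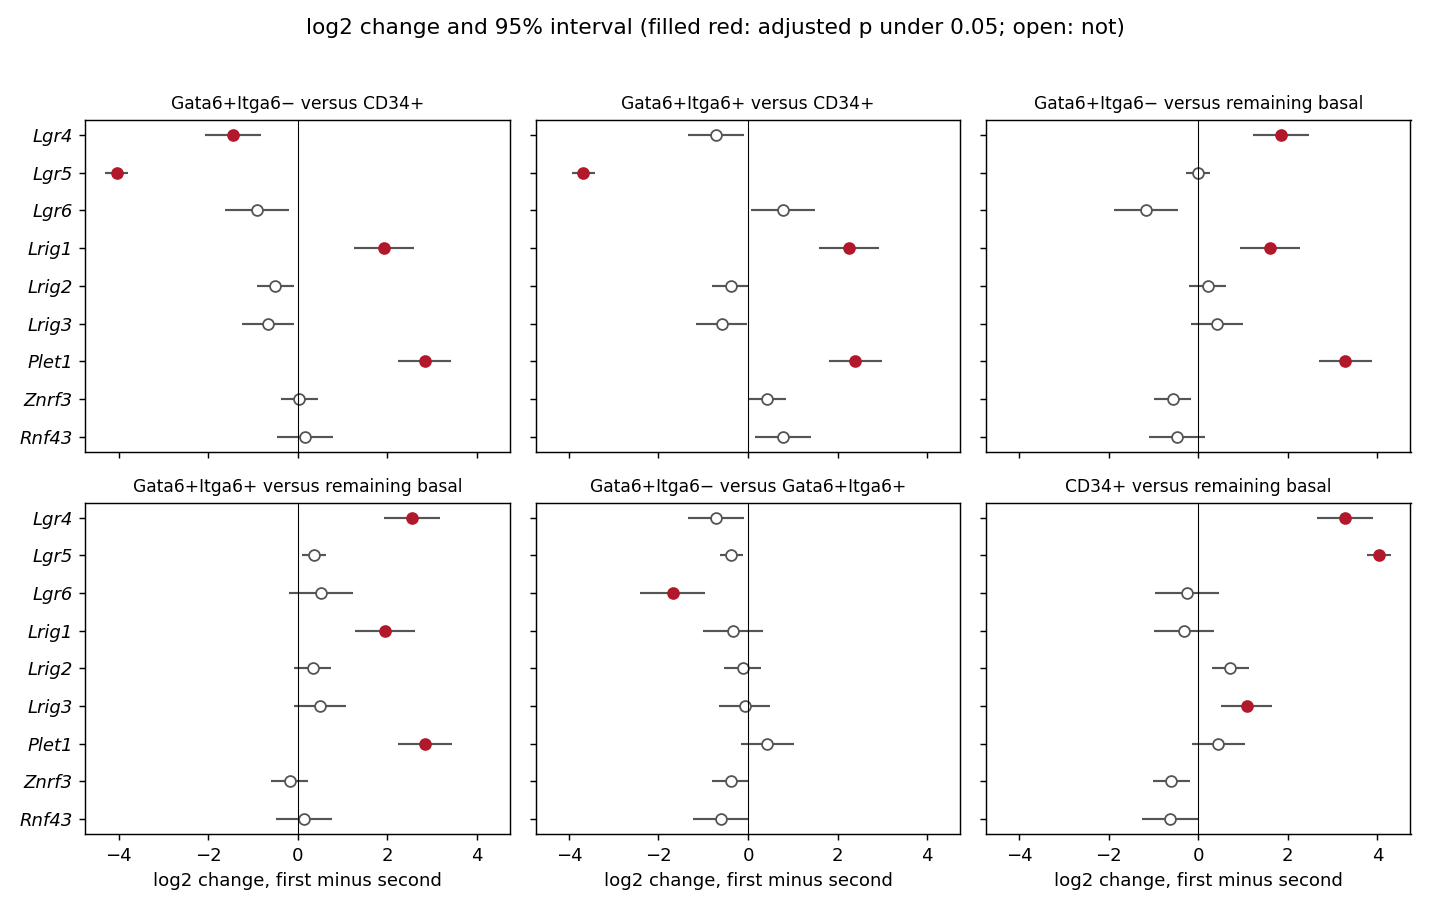
log2 change of each of the 9 genes in the 6 comparisons, first population minus second, with the 95% interval of the limma fit; filled red points have an adjusted p under 0.05 and open points do not. Lgr5 is lowest against CD34+ cells at -4.04 and -3.68, and Plet1 and Lrig1 lie right of 0 in the 4 comparisons of a Gata6+ population with CD34+ or remaining basal cells.

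**Figure D4:**
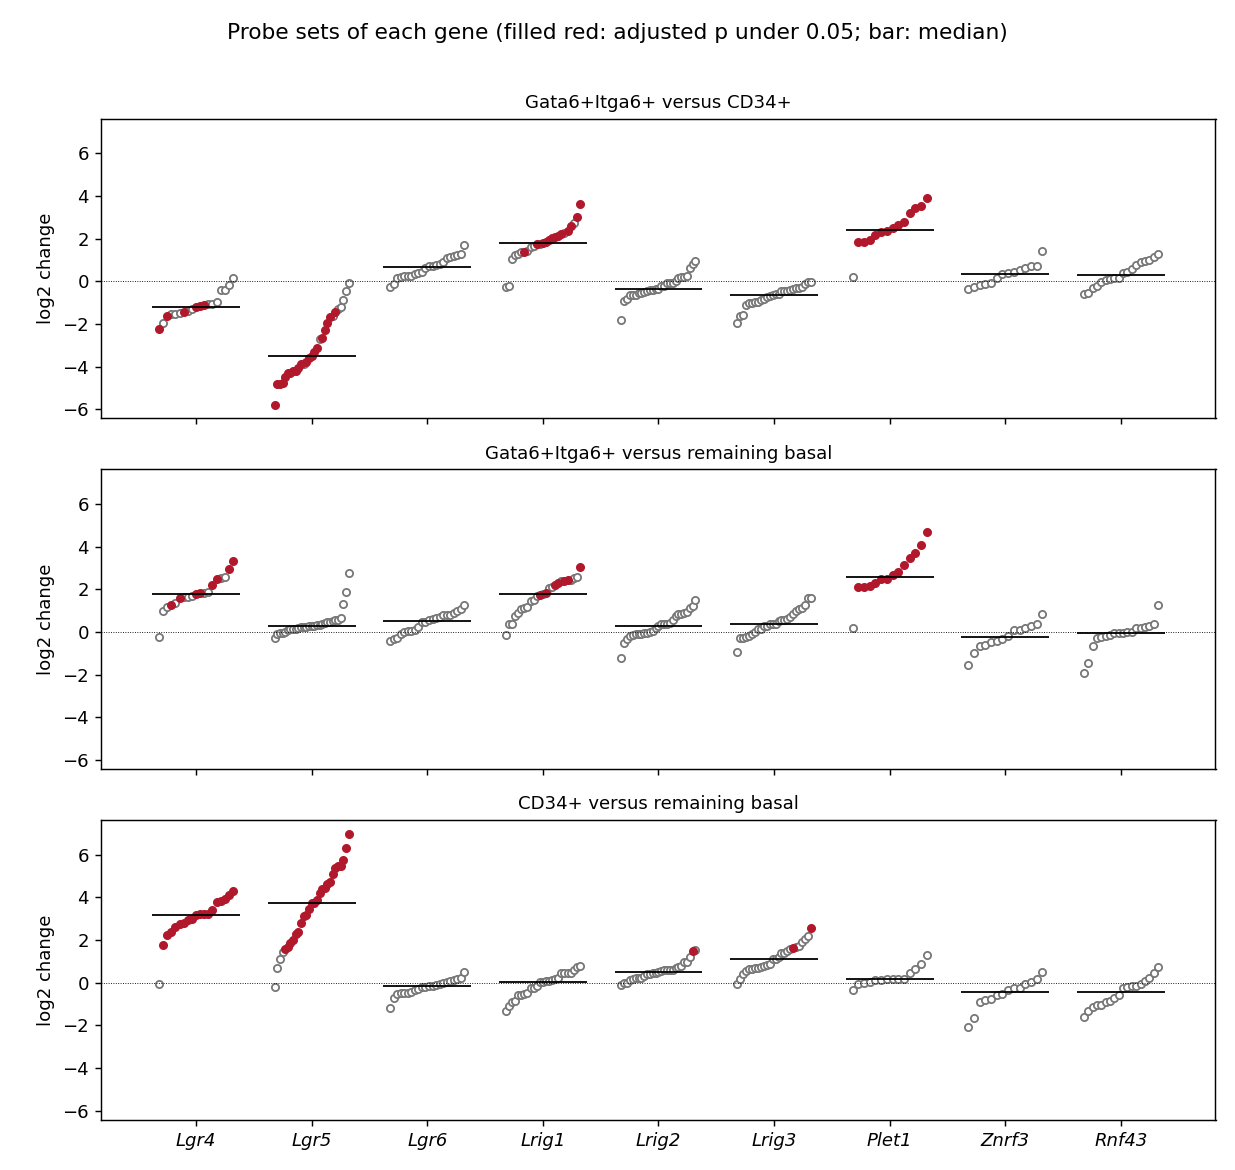
log2 change of every probe set of the 9 genes in 3 comparisons, ordered by size within each gene; filled red points have an adjusted p under 0.05 over all probe sets, open points do not, and the bar is the gene's median. Lgr5 spans the widest range, -0.20 to 6.98 in CD34+ against remaining basal cells, while 13 of 14 Plet1 probe sets rise together in the comparisons of Gata6+Itga6+ cells.

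Among the other R-spondin and Wnt receptor genes, 16 were measured and 11 reached the level of silent genes in some population. In CD34+ against remaining basal cells 4 rose and 1 fell (3.32% and 1.67% of all genes). In Gata6+Itga6- against remaining basal cells 2 rose and 1 fell (2.96% and 2.15%), and in Gata6+Itga6+ against remaining basal cells 1 rose (1.07%). Against CD34+ cells 2 fell in Gata6+Itga6+ cells (2.18% of all genes) and 2 in Gata6+Itga6- cells (4.74%). Between the Gata6+ populations limma called 0 (1.17% of all genes higher and 2.01% lower), with 1 at an unadjusted p under 0.05. Fzd3, a Wnt receptor, averaged 4.73 ± 0.46 in Gata6+Itga6- cells, 4.67 ± 0.47 in Gata6+Itga6+ cells and 6.39 ± 0.27 in CD34+ cells, against 2.71 ± 0.89 in remaining basal cells (SD, n = 3 each), and rose 12.8-fold in CD34+ against remaining basal cells (adjusted p = 0.000509). Its populations stood in nearly the order of Lgr4, with the Gata6+ means almost level. Fzd7, another such receptor, averaged 4.68 in Gata6+Itga6- cells, 4.56 in Gata6+Itga6+ cells and 4.42 in CD34+ cells, against 3.36 in remaining basal cells, and rose in each of the others over remaining basal cells. Fzd2 averaged 3.38 in CD34+ cells and lay under the level of silent genes elsewhere. The ligand gene Rspo3 averaged 1.91 in Gata6+Itga6- cells, 2.69 in Gata6+Itga6+ cells and 2.14 in CD34+ cells, against 3.20 in remaining basal cells, and fell in Gata6+Itga6- (adjusted p = 0.0138) and CD34+ cells (adjusted p = 0.0374) against them.

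Of 10 listed Wnt target genes, not all of them feedback genes, 7 reached the level of silent genes. In Gata6+Itga6+ against CD34+ cells 3 rose and 1 fell (2.4% and 2.18% of all genes). In Gata6+Itga6- against CD34+ cells 2 rose and 2 fell (3.22% and 4.74%). In CD34+ against remaining basal cells 1 rose and 2 fell (3.32% and 1.67%). In Gata6+Itga6- against remaining basal cells 1 rose and 1 fell (2.96% and 2.15%). In Gata6+Itga6- against Gata6+Itga6+ cells 1 fell (2.01%). In Gata6+Itga6+ against remaining basal cells limma called 0 (1.07% of all genes higher and 0.286% lower), with 2 at an unadjusted p under 0.05. Axin2, which acts in the breakdown of beta-catenin and is switched on by Wnt signals, averaged 4.44 ± 0.41 in Gata6+Itga6- cells, 4.93 ± 0.23 in Gata6+Itga6+ cells and 3.52 ± 0.14 in CD34+ cells, against 5.05 ± 0.31 in remaining basal cells (SD, n = 3 each), and fell in CD34+ against remaining basal cells by 2.90-fold (adjusted p = 0.00238). Its lowest population, CD34+, was the highest for Lgr4 and Lgr5. Apcdd1, a Wnt inhibitor at the membrane, averaged 4.30 in Gata6+Itga6- cells, 5.21 in Gata6+Itga6+ cells and 2.55 in CD34+ cells, against 4.77 in remaining basal cells, and fell in CD34+ against remaining basal cells by 4.66-fold (adjusted p = 0.0115). Ccnd1, which drives entry into the cell cycle, averaged 3.27 in Gata6+Itga6- cells, 5.06 in Gata6+Itga6+ cells and 5.38 in CD34+ cells, against 5.14 in remaining basal cells. It fell in Gata6+Itga6- against Gata6+Itga6+ cells by 3.44-fold (adjusted p = 0.0167), the comparison in which Lgr6 fell. Nkd1, an inhibitor of Wnt signals, averaged 2.87 in CD34+ cells and lay under the level of silent genes elsewhere.

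Of the ErbB receptors and their ligands, 11 of 12 were measured and 7 reached the level of silent genes. In Gata6+Itga6- cells 4 rose against CD34+ cells (3.22% of all genes) and 1 rose against Gata6+Itga6+ cells (1.17%). Against remaining basal cells 3 rose and 1 fell in Gata6+Itga6- cells (2.96% and 2.15%). In Gata6+Itga6+ cells 1 rose against CD34+ cells (2.4%) and 1 fell against remaining basal cells (0.286%). In CD34+ against remaining basal cells 1 fell (1.67%). Erbb3, a receptor that Lrig1 is known to restrain, averaged 5.85 ± 0.28 in Gata6+Itga6- cells, 4.89 ± 0.13 in Gata6+Itga6+ cells and 2.88 ± 0.71 in CD34+ cells, against 3.92 ± 0.68 in remaining basal cells (SD, n = 3 each). It rose against CD34+ cells in Gata6+Itga6- (7.85-fold, adjusted p = 0.000654) and Gata6+Itga6+ cells (4.04-fold, adjusted p = 0.0133), as Lrig1 did. The receptor gene Egfr did not: it averaged 4.82 in Gata6+Itga6- cells, 5.48 in Gata6+Itga6+ cells and 6.01 in CD34+ cells, against 4.96 in remaining basal cells. Egfr was thus highest in CD34+ cells, where Lrig1 was lowest, though its lower levels in the Gata6+ populations were not called against CD34+ cells. Erbb2, the partner receptor of Erbb3, averaged 5.76 in Gata6+Itga6- cells, 4.90 in Gata6+Itga6+ cells and 4.06 in CD34+ cells, against 4.45 in remaining basal cells. Its level rose in Gata6+Itga6- against CD34+ cells (3.26-fold, adjusted p = 0.00339). The ligand gene Epgn averaged 3.06 in remaining basal cells and lay under the level of silent genes elsewhere. Btc, another ligand gene, lay under that level in all populations, so its calls carry no fold.

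The genes whose levels ran most closely with each member were ranked by Pearson's r over the 12 arrays, among 2644 other genes whose population means spanned at least 1 on the log2 scale and reached the level of silent genes. The arrays share 4 populations, so these values describe the pattern of population means and carry no p. For Lgr5 the closest 5 were Il31ra (r = 0.994), Camk4, Krt24, Cd34 (r = 0.993) and Myoc (r = 0.992). Il31ra averaged 1.60 in Gata6+Itga6- cells, 1.63 in Gata6+Itga6+ cells and 7.24 in CD34+ cells, against 1.56 in remaining basal cells. For Lgr4 they were Ptn (r = 0.984), App, Capn2, Aqp3 and Dapk2 (r = 0.946). Ptn, a secreted growth factor, averaged 6.25 in Gata6+Itga6- cells, 7.69 in Gata6+Itga6+ cells and 8.73 in CD34+ cells, against 4.10 in remaining basal cells. For Lgr6 they were Acsl3 (r = 0.947), Nasp, Dnajc9, Ddt and Wdr43 (r = 0.919). Acsl3 averaged 2.19 in Gata6+Itga6- cells, 3.88 in Gata6+Itga6+ cells and 3.34 in CD34+ cells, against 3.61 in remaining basal cells.

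For Plet1 the closest were Gas7 (r = 0.980), Aadac, Defb6, Cst6 and Cyp27a1 (r = 0.969). For Lrig1 they were Acsl4 (r = 0.944), Abi3bp, Gas7, Rassf9 and Cxadr (r = 0.924). Gas7 stood in both lists, with means of 6.09 in Gata6+Itga6- cells and 5.76 in Gata6+Itga6+ cells, compared with 2.75 in CD34+ cells and 2.75 in remaining basal cells. Among the neighbours of Plet1, Defb6, a beta-defensin, averaged 9.44 in Gata6+Itga6- cells and 7.96 in Gata6+Itga6+ cells, compared with 1.90 in CD34+ cells and 2.16 in remaining basal cells. For Lrig3 they were Gnptg (r = 0.954), Tada1, Hltf, Arhgap44 and Tcf12 (r = 0.899), of which Tcf12, a basic helix-loop-helix transcription factor, averaged 6.49 in Gata6+Itga6- cells, 6.37 in Gata6+Itga6+ cells and 7.40 in CD34+ cells, against 5.24 in remaining basal cells. Lrig2, Znrf3 and Rnf43 were not ranked, because their population means spanned 0.71, 0.61 and 0.77.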

How the data were processed

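RNA from 12 samples of sorted cells was extracted on micro columns, amplified and labelled with NuGEN kits and hybridised to Affymetrix mouse exon arrays, per the labels' protocols. The deposited values are probe set intensities that the authors made with RMA in Affymetrix Power Tools on mm9, per the submitters' processing notes; versions and scale were not given in the sources used here. They were read as linear from array maxima of 2172 to 2953. Of 235932 probe sets, 221205 had 1 symbol and were used, 1684 had several and 13043 none; symbols were updated through RefSeq names of GRCm38.p6 (15377 current, 2489 updated, 42 kept). Intensities were taken as log2(value + 1), which shrinks changes of dim genes, and the deposited RMA scaling reduces shifts shared by most genes.

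limma 3.58.1 (R 4.3.3) fitted the 4 population means to all arrays together (prior degrees of freedom 2.12, residual 8), for genes, for probe sets and with diffSplice, and tested on simulated data. Adjusted p-values are Benjamini-Hochberg over all genes or probe sets of a comparison; folds against means under the level of silent genes are taken against that level. Of each further gene list at most 4 members are named, those called in the most comparisons. Egfr is named besides, once its values were known. Likeness names 5 genes per member whose means span at least 1. The probe sets described singly and the markers of other cells that are named were picked once their values were known. The members and lists were chosen with earlier results of these data known. The alternatives are given in the closing section.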

Additional observations from a re-analysis of the deposited data

How the results depend on the processing

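Of the 54 changes of the 9 genes, 17 were called, 8 of them in all 23 alternatives; 9 were lost in at least 1. Of the 37 not called, 8 were gained in at least 1 alternative and 17 changed sign in at least 1 while uncalled. With the brightest probe set for each gene, Lgr5 turned to -0.20 in CD34+ against remaining basal cells and to 0.43 in Gata6+Itga6- against CD34+ cells, by construction, since that probe set is the flat 5123512. This setting left 1 gene called in CD34+ against remaining basal cells (3 otherwise) and 2 in Gata6+Itga6- against CD34+ cells (4 otherwise). Averaging probe sets gave 5 called genes in Gata6+Itga6+ against CD34+ cells (3 otherwise). In Gata6+Itga6- against Gata6+Itga6+ cells it was 0 with brightness as a covariate and 0 to 2 when arrays were left out in turn (1 otherwise): 0 without Gata6+Itga6- replicate 1 or 3 or Gata6+Itga6+ replicate 1, 2 or 3, and 2 without Gata6+Itga6- replicate 2, which added Lgr4. Lgr5 probe sets departing in Gata6+Itga6+ against CD34+ cells numbered 16 with log2(value + 8) and 6 to 12 with arrays left out (10 otherwise), the 6 without CD34+ replicate 1; the cause was not tested.

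Counts of all called genes were lowest and highest at 503 and 1300 (819 otherwise) in Gata6+Itga6+ against CD34+ cells, 110 and 454 (242) against remaining basal cells, and 285 and 995 (567) in Gata6+Itga6- against Gata6+Itga6+ cells. They were 571 and 1513 (892) in CD34+ against remaining basal cells, 1056 and 2159 (1421) in Gata6+Itga6- against CD34+ cells, and 644 and 1403 (913) against remaining basal cells. The highest came from averaging probe sets.

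The labels do not say whether same-numbered arrays were paired. Deviations of same-numbered arrays from their population means correlated at -0.14 to 0.28, over 0.1 in 5 of 18 pairs. Those of arrays sharing the letter of the array name correlated at -0.17 to 0.28, over 0.1 in 5 of 18. Unmatched pairs were not set beside them, so this check cannot decide whether arrays were paired. With the replicate number as a block, 2 genes were called in CD34+ against remaining basal cells, Lrig3 being lost, and the counts of the other 5 comparisons stayed at 3, 3, 1, 4 and 3. Each letter of the array name held 1 array of every population, and its grouping differed from the replicate numbers only in CD34+ replicates 1 and 2. With that letter as a block, Lrig3 was lost (adjusted p = 0.0733) and Lrig2 gained (adjusted p = 0.0466) in CD34+ against remaining basal cells. Signal near the level of silent genes limits Lgr6 in Gata6+Itga6- cells, Lrig2 and Znrf3. The median over probe sets above that level, and each probe set's own spread, were alternatives added after seeing the data.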
